A study of Mus musculus with 12 samples.

Results

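Liver messenger RNA was followed for 9 aminotransferases and enzymes of glutamate metabolism: Gpt, Gpt2, Got1, Got2, Oat, Glud1, Prodh, Agxt2 and Aadat. A gene was included where a probe set of the Affymetrix array was annotated with that gene alone, and the brightest such probe set over the 12 arrays stood for it. All 9 were measured, among 22180 genes in all. Got2 had 2 probe sets and each of the other genes 1.

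Mice were male, 2 months old, and all carried floxed p53 alleles. The labels name the strain in 2 ways, as C57Bl/6N and as C57BL/6 Trp53tm1Brn/J. Adeno-Cre mice received an adenovirus expressing Cre recombinase through the tail vein and Adeno-GFP mice an equal titer of an adenovirus expressing green fluorescent protein. Diet began 3 days later, and the livers form 4 groups of 3 arrays: Adeno-Cre fasted and Adeno-GFP fasted (no food for 24 h), and Adeno-Cre fed and Adeno-GFP fed (free access to chow). Control mice therefore also carried the floxed alleles and a virus. The labels give neither the promoter driving Cre nor the share of liver cells recombined. Whole liver was measured, in which fewer cells of a type and less RNA per cell cannot be told apart.

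Most aminotransferases pass the amino group of an amino acid to alpha-ketoglutarate, making glutamate and a keto acid. In fasting liver, alanine and aspartate aminotransferases let carbon from muscle amino acids enter glucose synthesis, and glutamate dehydrogenase then releases the collected nitrogen for the urea cycle. Ornithine aminotransferase and proline dehydrogenase both feed pyrroline-5-carboxylate, the common intermediate of ornithine, proline and glutamate.

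The promoters of Got1 and Oat, which rose with fasting, and of Glud1, whose level was the steadiest of the 9, are shown here from RefSeq (build GRCm38.p6). Each is the 250 bases before the annotated start, read 5′ to 3′ along the gene. Capitals mark matches to any of the motifs searched.
Got1, chr19:43524606-43524855, minus strand: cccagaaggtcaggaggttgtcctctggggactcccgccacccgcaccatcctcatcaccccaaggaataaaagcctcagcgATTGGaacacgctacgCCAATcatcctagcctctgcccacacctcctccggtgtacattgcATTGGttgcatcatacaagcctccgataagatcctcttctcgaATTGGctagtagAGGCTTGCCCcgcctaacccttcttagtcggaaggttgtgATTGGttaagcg
Oat, chr7:132576399-132576648, minus strand: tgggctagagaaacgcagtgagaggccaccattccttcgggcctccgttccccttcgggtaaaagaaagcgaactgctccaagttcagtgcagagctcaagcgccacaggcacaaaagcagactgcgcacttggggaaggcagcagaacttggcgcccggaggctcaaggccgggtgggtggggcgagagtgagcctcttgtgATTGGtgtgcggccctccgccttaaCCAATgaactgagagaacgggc
Glud1, chr14:34310477-34310726, plus strand: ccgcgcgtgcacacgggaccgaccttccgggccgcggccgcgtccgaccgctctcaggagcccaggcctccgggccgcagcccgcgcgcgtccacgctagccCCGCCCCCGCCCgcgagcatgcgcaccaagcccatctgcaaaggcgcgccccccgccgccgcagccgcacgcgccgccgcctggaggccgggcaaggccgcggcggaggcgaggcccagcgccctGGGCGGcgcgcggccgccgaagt

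The RefSeq table held promoters for 8 of the 9 genes. Motifs searched on both strands were the TATA box (TATAAA), the CCAAT box (CCAAT), the GC box (GGGCGG), a CRE half-site (TGACG), a glucocorticoid half-site (AGAACA) and the p53 half-site. Got1 held 5 CCAAT matches, and 0.213% of all 32851 promoter windows of this length held 5 or more. It also held 1 match to the p53 half-site, which 7.13% of windows held. The p53 half-site of Got1 overlapped none of its CCAAT matches. Oat held 2 CCAAT matches, and 10.1% of windows held 2 or more. Glud1 held 3 GC box matches and a G and C content of 82.0%, against a median of 52.4% over all windows, and the GC box was found in 32.7% of windows. Gpt2 had 2 GC box matches, Aadat 1, Got2 1 TATA box match, and Agxt2 1 in each of its 2 annotated windows (12.4% of windows held one). The Prodh window matched none of these letters, and no window of the 8 genes matched the CRE half-site (17.8% of windows) or the glucocorticoid half-site (16.1%). A match describes these letters only.

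Values are log2 levels per probe set made by RMA, so a difference of 1 is a doubling. The median of an array was 6.26 to 6.33, and arrays within groups had correlations of 0.991 to 0.994. Each of the 9 genes lay above these medians on every array, the lowest being Prodh at 7.91. Differences are log2 changes with their standard error (SE) from limma fitted to all 12 arrays, and a change passed where the p adjusted over 22180 genes was under 0.05. Each array is taken to be 1 mouse, which the labels do not spell out. Trp53, the floxed gene, was not analysed here and gave no check of the labels. The labelled tissue showed in its markers: 8 hepatocyte genes, Alb and Cps1 among them, averaged 11.93 to 12.32 on each array, and lists of 4 neutrophil, 4 pancreas and 4 muscle genes averaged 4.62 to 5.82.

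Of the 9 genes, 8 shared one order of group means: lowest in Adeno-Cre fed livers, then Adeno-GFP fed, then Adeno-Cre fasted, and highest in Adeno-GFP fasted livers. Glud1 had another order. How many of all genes share that order was not counted, so it is not shown to be particular to the 9. Some steps in it were small, such as -0.0025 for Got2 between viruses in fasted livers and -0.08 for Aadat in fed livers. Taken as a mean over both injections, 6 of the 9 genes rose with fasting (Gpt, Gpt2, Got1, Oat, Prodh and Agxt2) and 0 fell; 8.34% of all genes passed in that comparison, and 4.02% rose. As a mean over both diets, 3 of the 9 fell after Adeno-Cre (Gpt, Oat and Prodh) and 0 rose; 5.59% of all genes passed, and 2.03% fell. The 9 genes are all among the brighter genes, where a larger share passed. With the dimmer genes left out, 2452 of 11090 genes passed with fasting and 1753 after Adeno-Cre. Got2 and Aadat then passed too with fasting, and Agxt2 after Adeno-Cre. The median log2 change of the 9 genes was 0.49 with fasting, against 0.01 over all genes, and -0.20 after Adeno-Cre, against -0.03 over all genes.

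**Figure D1:**
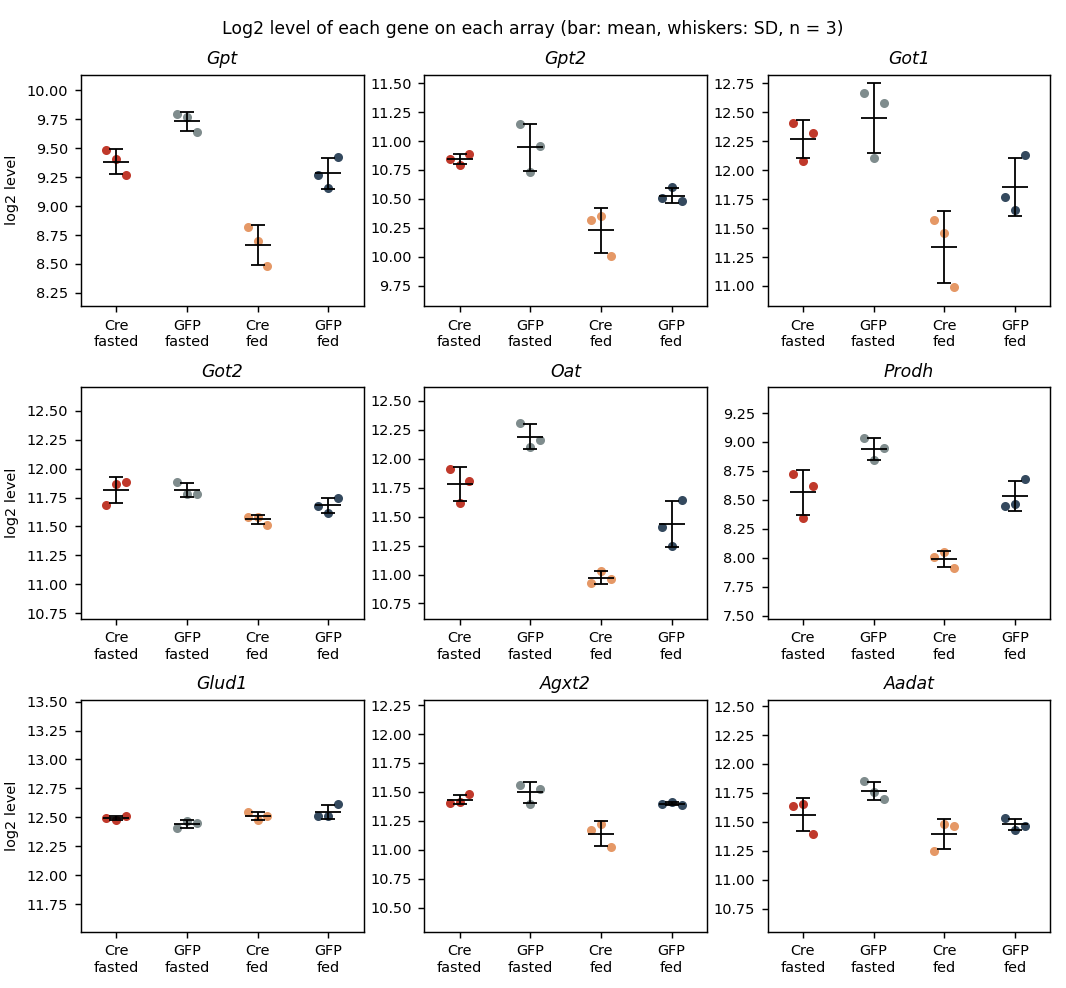
Log2 level (vertical axes, each spanning 2 log2 units) of the 9 genes on each of 12 arrays by group, with the group mean and SD (n = 3). In Gpt, Oat and Prodh the Adeno-Cre points lie below the Adeno-GFP points in both diets, and Glud1 stays between 12.41 and 12.62 on every array.

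The alanine aminotransferases come first. Gpt encodes the cytosolic enzyme, which turns alanine into pyruvate. Gpt had log2 levels of 9.48, 9.40 and 9.27 in the Adeno-Cre fasted livers, against 9.79, 9.77 and 9.64 in the Adeno-GFP fasted livers. Gpt levels in fed livers were 8.82, 8.70 and 8.48 after Adeno-Cre, against 9.27, 9.16 and 9.42 after Adeno-GFP. The Adeno-Cre arrays lay below the Adeno-GFP arrays in both diets, and the fasted arrays above the fed ones after both viruses. Gpt fell after Adeno-Cre in fed livers, by 0.62 (SE 0.10, limma adjusted p = 0.0171), a level of 0.652 times that after Adeno-GFP. In fasted livers the change was -0.35 (SE 0.10, limma adjusted p = 0.109), and the mean over diets fell by 0.48 (SE 0.07, limma adjusted p = 0.00202). With fasting Gpt rose by 0.72 after Adeno-Cre (SE 0.10, limma adjusted p = 0.00489) and by 0.45 after Adeno-GFP (SE 0.10, limma adjusted p = 0.0384). Leaving out replicate 3 of the Adeno-Cre fed livers ended the call there (limma adjusted p = 0.0591), as did replicates 1 and 3 of the Adeno-GFP fed livers (0.0701 and 0.0874). The rise after Adeno-GFP did not pass without any 1 of 7 arrays (replicate 2 of Adeno-Cre fasted and of Adeno-Cre fed, replicates 1, 2 and 3 of Adeno-GFP fasted, and replicates 1 and 2 of Adeno-GFP fed livers), with limma adjusted p of 0.0527 to 0.151.

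Gpt2 encodes the mitochondrial alanine aminotransferase. Gpt2 had log2 levels of 10.84, 10.80 and 10.89 in the Adeno-Cre fasted livers, against 11.14, 10.73 and 10.96 in the Adeno-GFP fasted livers. Gpt2 levels in fed livers were 10.32, 10.36 and 10.01 after Adeno-Cre, against 10.50, 10.60 and 10.48 after Adeno-GFP. Fasted and fed arrays did not overlap after either virus, whereas the viruses overlapped in fasted livers. Gpt2 rose with fasting by 0.62 after Adeno-Cre (SE 0.11, limma adjusted p = 0.0156) and by 0.52 as the mean over injections (SE 0.08, limma adjusted p = 0.00203). After Adeno-GFP the change was 0.42 (SE 0.11, limma adjusted p = 0.0756). The Adeno-Cre change was -0.30 (SE 0.11, limma adjusted p = 0.276) in fed livers and -0.10 (SE 0.11, limma adjusted p = 0.702) in fasted livers. Its rise after Adeno-Cre was not called without replicate 1 of the Adeno-Cre fasted livers (limma adjusted p = 0.0594) or replicate 3 of the Adeno-Cre fed livers (0.0554).

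The aspartate aminotransferases work on both sides of the malate-aspartate shuttle. Got1 encodes the cytosolic enzyme, and its spread within groups was the widest of the 9, with a pooled SD of 0.26. Got1 had log2 levels of 12.40, 12.08 and 12.32 in the Adeno-Cre fasted livers, against 12.67, 12.10 and 12.58 in the Adeno-GFP fasted livers. Got1 levels in fed livers were 11.57, 11.46 and 10.99 after Adeno-Cre, against 11.77, 11.66 and 12.13 after Adeno-GFP. Adeno-Cre fed replicate 3 was the lowest array of all, and the fasted and fed arrays after Adeno-GFP overlapped. With fasting Got1 rose by 0.93 after Adeno-Cre (SE 0.18, limma adjusted p = 0.0216), 1.90-fold, and by 0.76 as the mean over injections (SE 0.13, limma adjusted p = 0.00356). After Adeno-GFP the change was 0.60 (SE 0.18, limma adjusted p = 0.113). The Adeno-Cre change was -0.51 (SE 0.18, limma adjusted p = 0.244) in fed livers, where the groups did not overlap, and -0.18 (SE 0.18, limma adjusted p = 0.664) in fasted livers. Its rise after Adeno-Cre was not called without replicate 1 of the Adeno-Cre fasted livers (limma adjusted p = 0.0863) or replicate 3 of the Adeno-Cre fed livers (0.0738).

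Got2 encodes the mitochondrial aspartate aminotransferase. Got2 had log2 levels of 11.68, 11.87 and 11.89 in the Adeno-Cre fasted livers, against 11.88, 11.78 and 11.78 in the Adeno-GFP fasted livers. Got2 levels in fed livers were 11.59, 11.58 and 11.52 after Adeno-Cre, against 11.68, 11.61 and 11.75 after Adeno-GFP. Its groups lay closer together than those of Got1. The change with fasting was 0.19 as the mean over injections (SE 0.05, limma adjusted p = 0.0512), 0.25 after Adeno-Cre and 0.13 after Adeno-GFP, and none of these passed. After Adeno-Cre it differed by -0.12 in fed livers (limma adjusted p = 0.595) and by -0.0025 in fasted livers, where the 95% interval was -0.17 to 0.17. The second Got2 probe set, with a mean log2 level of 8.38, changed by 0.18 with fasting (SE 0.06) and by -0.05 after Adeno-Cre (SE 0.06) as means over the other factor.

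Ornithine aminotransferase and proline dehydrogenase meet at pyrroline-5-carboxylate. Oat encodes the mitochondrial enzyme that transfers the amino group of ornithine, and in liver it is found mainly in hepatocytes next to the central vein. Oat had log2 levels of 11.91, 11.62 and 11.81 in the Adeno-Cre fasted livers, against 12.31, 12.11 and 12.16 in the Adeno-GFP fasted livers. Oat levels in fed livers were 10.93, 11.03 and 10.96 after Adeno-Cre, against 11.41, 11.25 and 11.64 after Adeno-GFP. The 4 groups separated by virus in each diet and by diet after each virus. Oat rose with fasting by 0.81 after Adeno-Cre (SE 0.11, limma adjusted p = 0.00333), 1.75-fold, and by 0.76 after Adeno-GFP (SE 0.11, limma adjusted p = 0.00362), 1.69-fold. Both rises passed without each of the 12 arrays in turn. As the mean over diets Oat fell after Adeno-Cre by 0.44 (SE 0.08, limma adjusted p = 0.00512). Within a diet the changes were -0.41 in fasted livers (SE 0.11, limma adjusted p = 0.0678) and -0.46 in fed livers (SE 0.11, limma adjusted p = 0.061).

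Prodh encodes the mitochondrial enzyme that starts proline breakdown, and in human cells it is a known p53 target. Prodh had log2 levels of 8.72, 8.35 and 8.62 in the Adeno-Cre fasted livers, against 9.04, 8.84 and 8.95 in the Adeno-GFP fasted livers. Prodh levels in fed livers were 8.01, 8.05 and 7.91 after Adeno-Cre, against 8.45, 8.46 and 8.68 after Adeno-GFP. The Adeno-Cre arrays lay below the Adeno-GFP arrays in both diets. Prodh fell after Adeno-Cre by 0.54 in fed livers (SE 0.11, limma adjusted p = 0.0284) and by 0.46 as the mean over diets (SE 0.07, limma adjusted p = 0.00311). In fasted livers the change was -0.38 (SE 0.11, limma adjusted p = 0.0863). Prodh rose with fasting by 0.58 after Adeno-Cre (SE 0.11, limma adjusted p = 0.0151), and after Adeno-GFP the change was 0.41 (SE 0.11, limma adjusted p = 0.0577). The fall in fed livers was lost when replicate 1, 2 or 3 of the Adeno-Cre fed livers was left out (limma adjusted p = 0.0736, 0.0627 and 0.105) and likewise for replicate 1 or 3 of the Adeno-GFP fed livers (0.0749 and 0.129). The rise after Adeno-Cre was lost without replicate 1 of the Adeno-Cre fasted livers (limma adjusted p = 0.0657) and without replicate 1 or 3 of the Adeno-Cre fed livers (0.0502 and 0.0608).

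Glud1 encodes glutamate dehydrogenase, the mitochondrial enzyme that splits glutamate into alpha-ketoglutarate and ammonia. Glud1 had log2 levels of 12.50, 12.48 and 12.51 in the Adeno-Cre fasted livers, against 12.41, 12.47 and 12.45 in the Adeno-GFP fasted livers. Glud1 levels in fed livers were 12.55, 12.48 and 12.51 after Adeno-Cre, against 12.51, 12.51 and 12.62 after Adeno-GFP. All 12 arrays lay within 12.41 and 12.62, and the pooled SD within groups was 0.04, the smallest of the 9. No change passed: the mean over injections differed with fasting by -0.06 (95% interval -0.16 to 0.04, limma adjusted p = 0.495), and the mean over diets by 0.01 after Adeno-Cre (95% interval -0.09 to 0.11, limma adjusted p = 0.946). These intervals leave room for changes of up to 0.16 on the log2 scale. Within a single virus or diet the intervals were wider. They were -0.25 to 0.04 for fasting after Adeno-GFP and -0.09 to 0.19 for Adeno-Cre in fasted livers.

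Agxt2 encodes a mitochondrial aminotransferase that passes the amino group of alanine to glyoxylate and also acts on methylated arginines and beta-aminoisobutyrate. Agxt2 had log2 levels of 11.41, 11.42 and 11.48 in the Adeno-Cre fasted livers, against 11.56, 11.40 and 11.53 in the Adeno-GFP fasted livers. Agxt2 levels in fed livers were 11.17, 11.23 and 11.02 after Adeno-Cre, against 11.40, 11.41 and 11.39 after Adeno-GFP. Adeno-Cre fed livers were lower than each of the other groups on every array. Agxt2 rose with fasting by 0.19 as the mean over injections (SE 0.05, limma adjusted p = 0.0459), but the call held in only 2 of the 12 cases with an array left out, replicate 2 of the Adeno-Cre fed and replicate 2 of the Adeno-GFP fasted livers. In the other 10 the limma adjusted p was 0.0741 to 0.105, and with the replicate number as a block it was 0.0726. The Adeno-Cre change was -0.26 in fed livers (SE 0.08, limma adjusted p = 0.143) and -0.06 in fasted livers (SE 0.08, limma adjusted p = 0.733).

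Aadat encodes the mitochondrial enzyme that transaminates kynurenine and alpha-aminoadipate, in tryptophan and lysine breakdown. Aadat had log2 levels of 11.63, 11.66 and 11.40 in the Adeno-Cre fasted livers, against 11.85, 11.75 and 11.70 in the Adeno-GFP fasted livers. Aadat levels in fed livers were 11.25, 11.48 and 11.46 after Adeno-Cre, against 11.53, 11.43 and 11.47 after Adeno-GFP. Adeno-Cre fed and fasted arrays overlapped. Its change with fasting was 0.29 after Adeno-GFP (SE 0.09, limma adjusted p = 0.126), 0.17 after Adeno-Cre (limma adjusted p = 0.424) and 0.23 as the mean over injections (SE 0.07, limma adjusted p = 0.0527). After Adeno-Cre it differed by -0.21 in fasted livers (limma adjusted p = 0.29) and by -0.08 in fed livers (limma adjusted p = 0.812). None of these passed.

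The single comparisons can be set beside the whole array. In fasted livers 0 of the 9 genes passed for Adeno-Cre against Adeno-GFP by limma, where 2.75% of all genes did. At an unadjusted p under 0.05, 4 of the 9 were lower (Gpt, Oat, Prodh and Aadat), against 8.71% of all genes. The arrays of the viruses did not overlap for the same 4, lower after Adeno-Cre, against 10.9% of all genes, and for Glud1, higher after Adeno-Cre, against 9.96%. In fed livers 2 of the 9 fell and 0 rose, against 1.49% of all genes passing and 0.415% falling. There 7 of the 9 genes, all but Glud1 and Aadat, were lower on every Adeno-Cre array than on any Adeno-GFP array, against 11.5% of all genes. With fasting, 5 of the 9 rose after Adeno-Cre (2.67% of all genes passed and 1.5% rose) and 2 of the 9 after Adeno-GFP (3.07% passed and 1.2% rose). Leaving out replicate 1 of the Adeno-Cre fasted or replicate 3 of the Adeno-Cre fed livers brought the first of these counts to 2, namely Gpt and Oat. In those cases 207 and 283 of 22180 genes passed. Fasted arrays were all above fed arrays for 7 of the 9 genes after Adeno-Cre (11.3% of all genes) and for 6 after Adeno-GFP (11.1%), where Glud1 was below (11.1%).

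**Figure D2:**
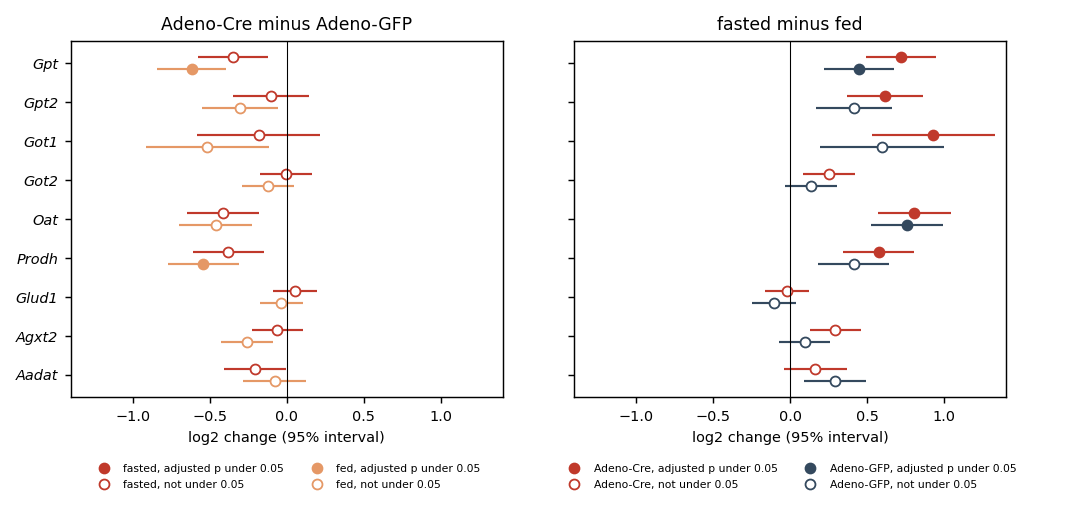
Log2 change (horizontal axes) with its 95% interval for the 9 genes, for Adeno-Cre minus Adeno-GFP in each diet (left) and fasted minus fed after each virus (right); filled points passed an adjusted p of 0.05. Filled points on the left are Gpt and Prodh in fed livers, and on the right Oat and Gpt after both viruses and Gpt2, Got1 and Prodh after Adeno-Cre.

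Whether the virus altered the response to fasting was asked with the interaction. By limma 0 of the 9 genes passed, where 1 of 22180 genes did (0.00451%), and 0 of the 9 reached an unadjusted p under 0.05, where 7.56% of all genes did. The estimate was positive for 8 of the 9 and negative for Aadat. For 7 of those 8 this is a larger change upward with fasting after Adeno-Cre, and for Glud1 a smaller change downward (-0.02 after Adeno-Cre and -0.10 after Adeno-GFP). The largest estimates were 0.33 for Got1 (95% interval -0.23 to 0.90) and 0.27 for Gpt (95% interval -0.05 to 0.59). For Oat it was 0.05 (95% interval -0.29 to 0.38). The median estimate over all genes was -0.0007. Most of the 9 genes varied together over the same arrays, so their signs are not separate observations. The comparisons within a diet and within a virus share arrays, so a gene's Adeno-Cre change in fasted minus that in fed livers is the same estimate as its fasting change after Adeno-Cre minus that after Adeno-GFP.

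Adeno-Cre fasted and Adeno-GFP fed livers differ in both factors, and their means were neighbours in the order of 8 of the 9 genes. Gpt averaged 9.38 ± 0.11 in Adeno-Cre fasted livers and 9.28 ± 0.13 in Adeno-GFP fed livers (SD, n = 3 each). Prodh averaged 8.56 ± 0.20 in Adeno-Cre fasted livers and 8.53 ± 0.13 in Adeno-GFP fed livers. Oat averaged 11.78 ± 0.15 in Adeno-Cre fasted livers and 11.43 ± 0.20 in Adeno-GFP fed livers. Arrays of these groups overlapped for 7 of the 9 genes and did not for 2 of the 9 genes (Gpt2 and Glud1). That share is near the one over all genes, where 24.3% did not overlap. No contrast between these groups was fitted.

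In fed livers the calls of Gpt and Prodh were lost without certain single arrays, though not always with a smaller change. Without Adeno-GFP fed replicate 1 the changes were -0.62 for Gpt and -0.58 for Prodh, against -0.62 and -0.54 with all arrays. Without Adeno-Cre fed replicate 3 they were -0.52 and -0.50, and without Adeno-GFP fed replicate 3 -0.55 and -0.47. Prodh was at -0.55 and -0.57 without Adeno-Cre fed replicate 1 or 2. Of all genes, 42 passed without Adeno-GFP fed replicate 1, against 331 with all arrays. Adeno-Cre fed replicate 3 was the lowest of its group for 6 of the 9 genes and Adeno-GFP fed replicate 3 the highest of its group for 6. Fasted livers leaned too: Adeno-GFP fasted replicate 1 was the highest of its group for 8 of the 9 genes and replicate 2 the lowest for 6. In the mean over diets, Gpt, Oat and Prodh each passed without any 1 of the 12 arrays, with limma adjusted p between 0.00237 and 0.0155.

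**Figure D3:**
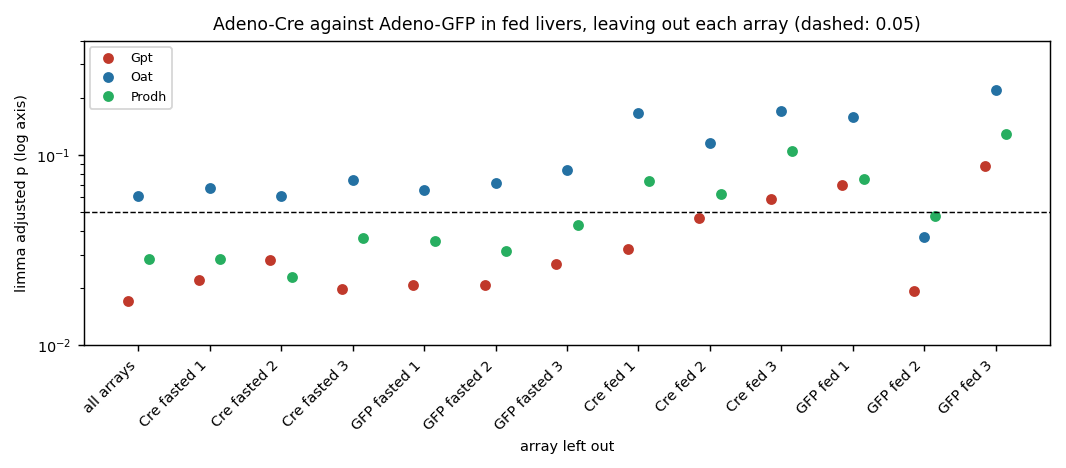
Adjusted p (vertical log axis) of Gpt, Oat and Prodh for Adeno-Cre against Adeno-GFP in fed livers with all arrays and with each array left out in turn (horizontal axis); the dashed line is 0.05. Gpt passes in 9 of 12 cases, Prodh in 7 and Oat in 1, and the highest p of all 3 genes is without Adeno-GFP fed replicate 3.

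Cell type markers are given beside these results by list. The mean log2 level of 8 hepatocyte markers was 12.15 to 12.17 in Adeno-Cre fasted and 12.26 to 12.32 in Adeno-GFP fasted livers. In fed livers it was 11.93 to 12.12 after Adeno-Cre and 12.12 to 12.16 after Adeno-GFP, and 0 of the 8 passed for Adeno-Cre by limma as the mean over diets. Pericentral hepatocyte markers, a list of 10 that includes Oat, Glul and Slc1a2, lay at 9.99 to 10.02 in Adeno-Cre fasted and 10.22 to 10.33 in Adeno-GFP fasted livers, and at 10.05 to 10.15 in Adeno-Cre fed and 10.37 to 10.44 in Adeno-GFP fed livers. Of those 10, 8 fell after Adeno-Cre as the mean over diets and 0 rose. Of 6 periportal markers 4 were measured, with means of 12.02 to 12.19 in Adeno-Cre fasted and 12.31 to 12.38 in Adeno-GFP fasted livers, and 11.54 to 11.90 in Adeno-Cre fed and 12.05 to 12.13 in Adeno-GFP fed livers. After Adeno-Cre, as the mean over diets, 2 of these 4 fell (Hal and Cyp2f2) and 1 rose (Hsd17b13). The 8 Kupffer cell and macrophage markers lay at 7.78 to 8.37 in Adeno-Cre fasted and 8.36 to 8.89 in Adeno-GFP fasted livers, and at 8.13 to 8.71 in Adeno-Cre fed and 8.55 to 8.61 in Adeno-GFP fed livers. Of these 8, Lyz2 alone fell after Adeno-Cre in that mean. Stellate cell markers, 8 in number, lay at 8.07 to 8.32 in Adeno-Cre fasted and 8.39 to 8.47 in Adeno-GFP fasted livers, and at 8.38 to 8.52 in Adeno-Cre fed and 8.64 to 8.67 in Adeno-GFP fed livers, and 2 of them fell (Reln and Rgs5). The 7 endothelial markers lay at 8.83 to 9.02 in Adeno-Cre fasted and 8.74 to 9.17 in Adeno-GFP fasted livers, and at 8.55 to 9.08 in Adeno-Cre fed and 9.13 to 9.24 in Adeno-GFP fed livers, and 0 passed. With fasting, as the mean over injections, 2 of 8 hepatocyte and 2 of 4 periportal markers rose, 1 of 10 pericentral markers (Oat) rose and 2 fell, and 3 of 8 stellate (Lrat, Col1a2 and Col3a1) and 1 of 8 Kupffer cell markers (Lyz2) fell. Of 5 cholangiocyte markers 4 were measured, and in the same means 1 fell after Adeno-Cre and 0 passed with fasting. Of 7 T, NK and B cell markers 6 were measured, and 0 passed after Adeno-Cre and 1 fell with fasting. The part of all these markers in the changes of the 9 genes was not tested.

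Most of the 9 genes varied together, and Glud1 did not: over the 12 arrays its Pearson correlations with the other 8 were -0.73 to -0.37. Over the same arrays, Pearson correlations between the 8 genes other than Glud1 were 0.57 to 0.96 (median 0.86 over 28 pairs), the highest being between Oat and Prodh. The arrays share the differences between groups, and with these removed the correlations were -0.22 to 0.94 (median 0.30). Within groups Gpt2 and Agxt2 had the highest, at 0.94, and Oat and Prodh had 0.87. Aadat correlated with the other genes at -0.22 to 0.16 within groups, leaving Glud1 aside, where it was -0.50.

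Genes most like each called member over the 12 arrays were other liver enzymes in several cases, among 12368 genes searched. For Prodh they were Hpd and Hgd, of tyrosine breakdown, and Spns2, with correlations of 0.98, 0.98 and 0.97, and 0.84, 0.80 and 0.87 within groups. Oat was nearest to Lhpp, Cth, which makes cysteine from cystathionine, and Dhtkd1, of lysine breakdown (each 0.98, and 0.68, 0.80 and 0.55 within groups). Nearest to Gpt were Copz2, Ftcd, of histidine breakdown, and Suox, sulfite oxidase (each 0.98, and 0.73, 0.68 and 0.78 within groups). The urea cycle enzyme gene Asl was among the 3 nearest to both Got1 (0.97) and Gpt2 (0.95). The rest were Gfra1 and Gm5424 for Got1, Agt and Timm17b for Gpt2, and Ttc38, Ap2s1 and Yif1a for Agxt2. All were picked for their correlation over the same arrays, so the values within groups are no separate check.

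A list of other aminotransferases held 13 genes outside the 9, all measured. It included Etnppl and Phykpl, which are phospho-lyases related to aminotransferases. As the mean over injections 5 rose with fasting and 1 fell, with a list median of 0.09. Those that rose were Agxt (0.69, limma adjusted p = 0.0019), which removes glyoxylate in peroxisomes, Abat (0.63, GABA transaminase), Bcat2 (0.45, branched-chain aminotransferase), Etnppl (0.37) and Phykpl (0.34). Kyat3, a kynurenine aminotransferase, fell by 0.35 (limma adjusted p = 0.012). As the mean over diets 3 fell after Adeno-Cre and 1 rose, with a median of -0.20. Agxt fell by 0.68 (limma adjusted p = 0.00237), Kyat1 by 0.35 and Abat by 0.25, whereas Psat1, of serine synthesis, rose by 0.46 (limma adjusted p = 0.00272). Tat, the tyrosine aminotransferase gene, did not pass in either comparison (0.37 and -0.41).

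Genes that make or use glutamine and glutamate showed little movement as a list. Of 15 listed, 12 were measured; as the mean over injections 2 rose with fasting, Oplah (0.36, 5-oxoprolinase) and Glyctk (0.25, glycerate kinase), and Gclm (-0.30), a subunit of the glutathione synthesis enzyme, fell. After Adeno-Cre, as the mean over diets, Gclc, the catalytic subunit, rose by 0.34 (limma adjusted p = 0.017) and Glul, glutamine synthetase, fell by 0.21 (limma adjusted p = 0.0386). The list medians were 0.00 and 0.07. Asns, asparagine synthetase, had changes of 0.01 with fasting and 0.08 after Adeno-Cre and did not pass.

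In the proline and ornithine list 8 of 11 genes were measured. With fasting, as the mean over injections, Odc1, of polyamine synthesis, rose by 0.50 (limma adjusted p = 0.00361) and the arginase gene Arg1 by 0.28, and 0 fell (list median 0.09). After Adeno-Cre, as the mean over diets, 3 fell and 0 rose (list median -0.19). These were Aldh4a1 (-0.29, limma adjusted p = 0.0211), which turns pyrroline-5-carboxylate into glutamate, Hoga1 (-0.31), of hydroxyproline breakdown, and Arg1 (-0.22). Prodh2, hydroxyproline dehydrogenase, had -0.24 (limma adjusted p = 0.101), and Aldh18a1, which makes pyrroline-5-carboxylate from glutamate, 0.05 (limma adjusted p = 0.789).

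Of 18 genes of glutamate transport and the malate-aspartate shuttle, 4 rose with fasting as the mean over injections and 0 fell (list median 0.07). They were Slc25a15, the mitochondrial ornithine carrier (0.54, limma adjusted p = 0.00225), Slc25a22, a mitochondrial glutamate carrier (0.51), Slc25a13, the liver aspartate-glutamate carrier (0.29), and Mdh2, mitochondrial malate dehydrogenase (0.25). After Adeno-Cre, as the mean over diets, 3 fell and 0 rose (list median -0.08): Slc25a15 (-0.37, limma adjusted p = 0.0239), the glutamine transporter gene Slc38a3 (-0.37, limma adjusted p = 0.00966) and the glutamate transporter gene Slc1a2 (-0.34, limma adjusted p = 0.00414). Slc25a15 carries ornithine into the mitochondria, where the Oat enzyme works, and both genes rose with fasting and fell after Adeno-Cre in these means.

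Among 16 regulators of amino acid enzymes, 5 rose with fasting as the mean over injections and 1 fell (list median -0.04). Ppargc1a, a coactivator of fasting genes, rose by 0.79 (limma adjusted p = 0.00188), Hnf4a, the hepatocyte nuclear receptor, by 0.42, Nr1i3 (CAR) by 0.41, Creb3l3 by 0.28 and Crtc2 by 0.24, and the glucocorticoid receptor gene Nr3c1 fell by 0.22. After Adeno-Cre, as the mean over diets, Nr1i3 alone of the 16 passed, lower by 0.63 (limma adjusted p = 0.00429). Klf15, known to drive amino acid breakdown in fasting liver, had changes of 0.32 with fasting (SE 0.13, limma adjusted p = 0.16) and -0.30 after Adeno-Cre (SE 0.13, limma adjusted p = 0.231).

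**Figure D4:**
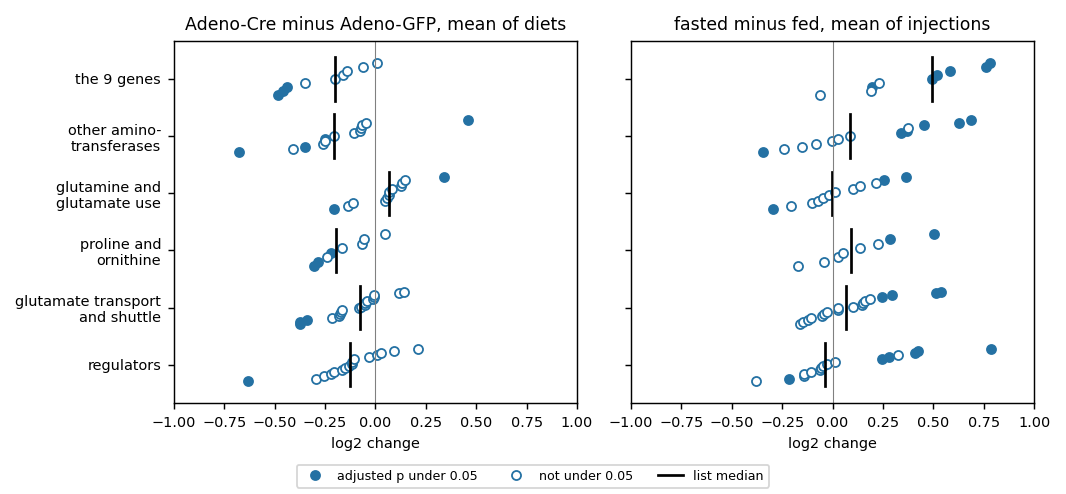
Log2 change (horizontal axes) of each measured gene of the 9 and of 5 related lists, for Adeno-Cre minus Adeno-GFP as the mean over diets (left) and fasted minus fed as the mean over injections (right); filled points passed an adjusted p of 0.05 and bars mark list medians. On the left the median of the 9 genes is -0.20, the same as that of the list of other aminotransferases and related phospho-lyases. The other list medians there lie between -0.20 and 0.07. On the right the median of the 9 genes is 0.49, where the other list medians lie between -0.04 and 0.09.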

How the data were processed

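RNA (200 ng) of 12 liver samples was hybridised to Affymetrix arrays. The authors deposited RMA values on the log2 scale for each probe set (RMA as named in the submitters' processing notes). The sources used here name no software version or genome build. RMA equalises the arrays, so a shift of all genes would be removed, and it compresses changes of dim probe sets. No detection calls were used, and the number of arrays limits the precision.

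Of 41345 probe sets, 23521 were annotated with 1 gene, 1814 with several and 16010 were unlisted. The brightest of a gene was kept. Groups came from the labels. limma 3.58.1 (R 4.3.3) was fitted to 12 arrays with a mean per group and eBayes. Benjamini-Hochberg adjustment ran within each of 7 contrasts. The fit was tested on simulated data. Where nothing says that arrays are separate animals, p-values cover only the spread between arrays.

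The members and lists were chosen with earlier results of these data known. From the related lists the text names a set of genes chosen for their roles (Glul, Tat, Agxt, Psat1, Asns, Prodh2, Aldh4a1, Aldh18a1, Klf15 and Ppargc1a) and, for each list, up to 4 more with the smallest p among those that passed. Kyat1, Etnppl, Slc25a22, Mdh2 and Nr3c1 were named after their values were seen. Genes most like a called member were the 3 with the highest correlation. Alternatives were: dim genes dropped; a repeated quantile normalisation; a block for replicate number; a fit of the compared groups alone; a trended, robust prior; probe sets averaged or all tested; and each array dropped in turn. Replicate numbers are not stated to pair mice: deviations of same-numbered arrays correlated at -0.09 to 0.15, over 0.1 in 3 of 18 pairs.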

Additional observations from a re-analysis of the deposited data

How the results depend on the processing

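For Adeno-Cre against Adeno-GFP as the mean over diets, Gpt, Oat and Prodh passed under all 6 alternatives run and without each array, the count being 3 to 4. The interaction count was 0 throughout. Elsewhere the count of the 9 genes past limma's threshold depended on the setting. For fasting as the mean over injections (6) it was 5 to 8, Agxt2 missing with quantile normalisation (adjusted p = 0.0696) and with every probe set tested (0.0827). For fasting after Adeno-Cre (5) it was 4 to 7, without Got1 when every probe set was tested (0.0603) and without Prodh when only its groups were fitted (0.0633). With dim genes left out it was 2 for Adeno-Cre in fasted livers (Oat and Prodh), 4 for Adeno-Cre in fed livers and 4 for fasting after Adeno-GFP. Of the 11090 genes then tested, 940, 606 and 1160 passed. With a trended and robust prior the same counts were 2, 4 and 5, where 939, 539 and 1038 of 22180 genes passed. Fitting only the groups compared, or testing every probe set, gave 0 for Adeno-Cre in fed livers and 1 for fasting after Adeno-GFP. With only those groups 145 and 394 of 22180 genes passed, and 91 and 388 of 41345 probe sets when all were tested. Leaving out each array gave 0 to 1 for Adeno-Cre in fasted livers, 0 to 3 in fed livers, 2 to 5 for fasting after Adeno-Cre and 1 to 2 after Adeno-GFP. In the same order 355 to 800, 31 to 362, 207 to 713 and 275 to 720 of 22180 genes passed. The count in fed livers was 0 with replicate 3 of Adeno-Cre fed, or replicate 1 or 3 of Adeno-GFP fed, left out. In those cases 83, 42 and 31 of 22180 genes passed. Dropping genes, arrays or groups changes what is adjusted and pooled by construction; otherwise the cause was not tested.

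With the replicate block, the counts were 0, 2 and 3 for Adeno-Cre in fasted livers, fed livers and their mean, 5 and 2 for fasting after Adeno-Cre and Adeno-GFP, and 5 for its mean over injections, where Agxt2 lost its call; no other call of the 9 genes changed. In the same order 531, 234, 1110, 552, 587 and 1658 of 22180 genes passed.

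Signs turned only for changes near 0. For Got2 after Adeno-Cre in fasted livers the change was 0.0025 after quantile normalisation, 0.0197 with its probe sets averaged, and -0.0402 to 0.0622 without each array. Without each array the Glud1 change after Adeno-Cre, mean over diets, was -0.0013 to 0.0253 and the Oat interaction -0.0558 to 0.14.

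Over all genes, the counts past the threshold ranged from 31 (without Adeno-GFP fed replicate 3) to 606 (dim genes left out) around 331 for Adeno-Cre in fed livers, and from 320 to 940 around 609 in fasted livers. For fasting they ranged from 207 to 1049 around 592 after Adeno-Cre and from 275 to 1160 around 682 after Adeno-GFP. As means they ranged from 824 to 1753 around 1239 for Adeno-Cre and from 1239 to 2452 around 1850 for fasting. Each lower end and each main count is out of 22180 genes. Each upper end is out of 11090 genes, with dim genes left out, so the counts do not share a total.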
